A study of Mus musculus with 24 samples.

Results

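Macrophages that carry the liver X receptors were exposed to KLA, a bacterial glycolipid that contains lipid A. Across all genes, 3 KLA libraries were compared with 3 vehicle libraries. These are 6 of the 24 libraries of the study. The libraries were taken by their labels, LXR positive with vehicle and LXR positive with KLA, and each KLA library was paired with the vehicle library of the same replicate number. The cells were bone-marrow-derived macrophages of C57BL/6J mice aged 8 to 12 weeks, grown from marrow in medium conditioned by L929 cells, with the medium renewed after 4 days. On day 5 they received vehicle or 100 ng/ml of KLA, which the labels spell Kado2-Lipid A, for 17 h. The replicate number was taken as the mouse, so a KLA library and its paired vehicle library were treated as from the same mouse. The spread between replicates of a treatment covers mouse, culture and library together. The fit used the pairing, so its standard errors leave out differences between mice that both libraries of a pair share. A matching set of 6 libraries from mice lacking both LXRalpha and LXRbeta, labelled DKO (LXR negative), with the same vehicle and KLA treatment entered the fit to estimate the spread and is described only where its response was compared. The comparison asks which genes a Toll-like receptor 4 agonist moved, at a single dose and time, in macrophages with intact LXR.

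KLA contains lipid A, the lipid part of lipopolysaccharide, the outer-membrane glycolipid of Gram-negative bacteria. CD14 passes it to MD-2 (Ly96) bound to TLR4, and the receptor signals through the adaptor MyD88 toward NF-kB and AP-1 and through TRIF (Ticam1) toward IRF3 and type I interferon, which acts back on the same cells through its receptor. Macrophages answer with cytokines, chemokines, antimicrobial proteins and a shift in metabolism, and feedback inhibitors then limit the signal. The LXRs (Nr1h3 and Nr1h2) are nuclear receptors for oxysterols that pair with RXR and control cholesterol efflux and fatty acid synthesis.

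Values are normalized counts (reads per gene divided by 1 size factor per library), given in the order of replicates 1, 2 and 3. The vehicle libraries held 10540385 to 17348717 reads and the KLA libraries 8856391 to 10179626, and 22150 to 23400 and 20639 to 21594 genes were detected in them. Transcripts of the mitochondrial chromosome took 14.3 to 19.3% of the reads with vehicle and 8.99 to 15.5% with KLA. The 20 macrophage identity genes were all above the low-count filter, and Adgre1 (F4/80), Csf1r, Itgam and Lyz2 were abundant in all 6 libraries. The libraries numbered 2 stood apart in several gene groups: KLA library 2 was the highest of the KLA libraries in 35 of 36 interferon-stimulated genes and 14 of 14 interferon-inducible GTPases and the lowest in 23 of 23 cholesterol genes, against 36.2% highest and 38.1% lowest over all genes tested. Results on those groups are therefore given with and without replicate 2.

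Some markers of other marrow cells moved as well. Over all genes tested, 16.5% were higher and 13.5% lower with KLA at an adjusted p under 0.05 (limma). Summed over 12 tested neutrophil and precursor markers, the level was 4719, 4803 and 4863 with vehicle and 2292, 2751 and 2319 with KLA, and 11 of the 12 fell, among them the granule enzyme Mpo at 151, 218 and 167 with vehicle and 6.52, 12.0 and 7.59 with KLA. Ly6g, which defines mature neutrophils, had at most 1.22 normalized counts in any of the 6 libraries. Stromal markers summed to 1077, 284 and 155 with vehicle and 2708, 2180 and 2076 with KLA; 3 of 9 tested rose (Lox, Pdgfrb and Dcn, with Dcn not called without the pairing at an adjusted p of 0.199 and Pdgfrb not called without replicate 1), Lox alone reaching 1568, 1962 and 1859, while the collagen Col1a1 was at 327, 42.8 and 24.4 and 524, 37.4 and 42.5 and did not pass the test. Dendritic cell markers summed to 279.8 to 551.8 with vehicle and 209.7 to 246.6 with KLA. Of these markers 1 of 8 was higher (Ccr7, not called without replicate 1) and 1 lower (Itgax), 12.5% each way and no more than over all genes. Of the osteoclast markers 2 of 8 rose (Acp5 and Mmp9) and 3 fell (Atp6v0d2, Dcstamp and Nfatc1), with sums of 3159 to 5625 and 1869 to 2373. Erythroid and megakaryocyte markers gave 1 lower of 4 tested (Gp1ba), with sums of 275 to 339 and 305 to 1029, and mast cell, basophil and eosinophil markers 1 lower of 2 (Prg2), with sums of 30.9 to 85.6 and 7.83 to 44.9 and Mcpt4 at 0. Lymphocyte markers (T, B and NK cells) summed to 364 to 436 with vehicle and 85.4 to 157 with KLA, and 2 of 5 tested fell, Cd4 (306, 297 and 373 to 115, 55.4 and 83.5) and Cd3d, while Ncr1 was at 0 in every library and Cd3e at or near 0. The part of other cells in the results was not tested, and in bulk RNA fewer cells of a type and less RNA per cell cannot be told apart.

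KLA changed many genes in both directions. Of 15957 genes tested, 2635 (16.5%) were higher and 2154 (13.5%) lower with KLA at an adjusted p under 0.05 (limma with Benjamini-Hochberg adjustment, called from here on), 30% in all. Among the called genes 4774 moved the same way in all 3 pairs, and in 4392 the 3 KLA and 3 vehicle libraries did not overlap. Over all genes tested, called or not, every KLA library lay above every vehicle library in 21.6% and below in 18%. Changes past 2-fold numbered 1086 higher and 1105 lower, past 4-fold 365 and 377, and past 16-fold 77 and 36. The median log2 fold change over all genes tested was -0.0028, so the gene lists are read against a centre near 0. Genes were named by a rule of size, and members given to complete a small count were chosen after their values were seen.

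**Figure D1:**
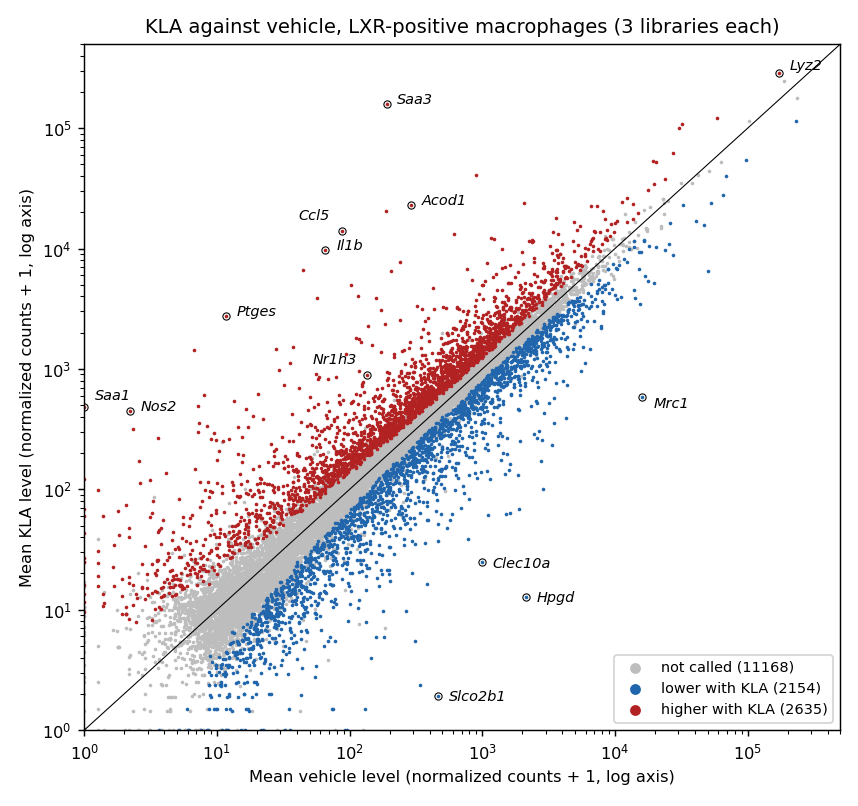
Mean normalized count of each tested gene in the 3 vehicle libraries (x axis, log scale) and the 3 KLA libraries (y axis, log scale), with called genes coloured by direction and named examples labelled. The 11168 genes not called lie along the diagonal, Saa3, Il1b, Ccl5 and Ptges stand far above it, and Slco2b1, Hpgd and Mrc1 far below.

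The acute-phase protein Saa3, a serum amyloid A, had the largest log2 fold change on the log2(value + 1) scale, where genes with no vehicle read are understated. Saa3 (ENSMUSG00000040026, chromosome 7, 46711998 to 46715700, GRCm38) stood at 89.2, 83.3 and 393 normalized counts in the vehicle libraries and at 268589, 71759 and 134857 in the KLA libraries. Every KLA library was far above every vehicle library, with library 1 highest and library 2 lowest. The rise was 839.7-fold in the means, a log2 fold change of 9.90 ± 0.61 (SE, n = 3 pairs; limma adjusted p = 1.76e-05), and in the KLA libraries 0.519 to 2.02% of all reads came from this gene. Its relative Saa1 had no read in any vehicle library and 445, 334 and 657 normalized counts with KLA, at least 469.7-fold higher, and edgeR on the recovered reads put it above Saa3 (12.16 against 9.82).

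Most antimicrobial and inflammatory effectors rose with it: 21 of 23 tested were called higher and none lower, with a median log2 fold change of 1.34. Nos2, the inducible nitric oxide synthase, went from 1.19, 0 and 2.44 to 521, 274 and 539, that is from 3 reads to 937 in all, a ratio of 439 with a 95% counting interval of 149.9 to 2134. Every KLA library was far above the highest vehicle library. Acod1, which makes itaconate from a tricarboxylic acid cycle intermediate, rose from 261, 119 and 490.0 to 27078, 19137 and 22213 (log2 fold change 6.50 ± 0.38), with no overlap. Slpi, a secreted protease inhibitor, rose from 4.76, 3.11 and 0 to 439.7, 52.4 and 299, and here KLA library 2 lay far below the other 2. The catalytic NADPH oxidase subunit Cybb was already abundant with vehicle at 36134, 26586 and 32886 and reached 126909, 97251 and 100998, 3.40-fold higher. Lysozyme Lyz2 rose by 1.65-fold, from 198745, 137866 and 181798 to 312898, 252557 and 289697, 1 of the 6 largest differences in level among called genes. Cyba, a further oxidase subunit, did not pass the test, at a log2 fold change of 0.38 ± 0.17.

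Transcripts of the receptor itself did not pass the test. Tlr4 was at 2223, 2139 and 2293 with vehicle and 1687, 2805 and 2474 with KLA, overlapping groups with a log2 fold change of 0.03 ± 0.15 (adjusted p = 0.884). Its co-receptor Cd14 rose from 1982, 1932 and 2372 to 5654, 3997 and 5722, 2.45-fold, and every KLA library lay above every vehicle library. Of 23 tested genes of the TLR4 complex and its adaptors 6 were higher and 1 lower, with a median of 0.14. Myd88 was among the 6 at a log2 fold change of 0.71 ± 0.11, and Traf1, an adaptor induced by NF-kB, was the largest at 3.01 ± 0.13 (203, 95.7 and 213 to 1926, 848 and 1363). Irak2, a kinase downstream of MyD88, was called higher at 0.67 ± 0.18, but not without replicate 1 or without replicate 3. Irak4 alone was called lower (-0.37 ± 0.12, adjusted p = 0.0437), a call that ended without the pairing (adjusted p = 0.0599).

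Other pattern receptors split: 8 of 18 tested rose and 7 fell. Clec4e (Mincle), a lectin for mycobacterial glycolipid, rose from 818, 369.7 and 1507 to 52724, 32754 and 37237, 45.5-fold, whereas the beta-glucan receptor Clec7a (Dectin-1) fell from 2736, 3129 and 2507 to 125, 256 and 129, 16.4-fold lower. In neither gene did the groups overlap. The formyl peptide receptors Fpr1 and Fpr2 rose by 13.9-fold and 14.3-fold. The cell-surface receptors Tlr1, Tlr2 and Tlr6, named after their values were seen, were called higher at log2 fold changes of 1.14, 1.10 and 0.61. Of the endosomal nucleic acid receptors, Tlr7, Tlr8, Tlr9 and Tlr13 were called lower at -0.88, -0.36, -2.11 and -0.91, and Tlr3 did not pass the test at 0.08 ± 0.16.

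Among 11 tested NF-kB subunits and inhibitors, 4 rose and 1 fell, with a median of 0.43. The 4 were the inhibitor Nfkbia (1.58 ± 0.19), the precursor subunit Nfkb2 (1.21 ± 0.11), and the inhibitors Nfkbie (1.12 ± 0.14) and Nfkbib (1.02 ± 0.16). The subunit Rel fell (-0.47 ± 0.10) and Rela did not pass at -0.15 ± 0.13. KLA library 2 was the lowest of the KLA libraries in all 11, and without replicate 2, 6 were higher and 1 lower with a median of 0.59. Feedback inhibitors of TLR signalling moved further, 10 of 17 higher and 1 lower with a median of 1.00. Socs3, which blocks cytokine receptor kinases, was at 158, 147 and 206 with vehicle and 2934, 2794 and 3596 with KLA, a tight rise of 18.2-fold with no overlap (log2 fold change 4.19 ± 0.18, adjusted p = 4.19e-06). Socs1 and the interleukin-1 receptor antagonist Il1rn rose by 11.1-fold and 10.7-fold, Il1rn least in KLA library 3 (2642, 4007 and 1053). Tnip3, a partner of the deubiquitinase A20, rose 4.12-fold, and A20 itself (Tnfaip3) 3.18-fold. The one fall was Zfp36, which speeds decay of cytokine mRNA, at a log2 fold change of -0.97 ± 0.20.

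Cytokine transcripts held some of the steepest rises: 13 of 20 tested interleukins and other cytokines were higher and 2 lower, with a median log2 fold change of 1.61. Interleukin-1 alpha and beta, pyrogenic cytokines, were among the steepest. Il1a went from 5.95, 3.89 and 7.33 to 2364, 1152 and 799.9 (251-fold; log2 fold change 7.63 ± 0.36) and Il1b from 54.7, 49.8 and 89.2 to 12669, 5921 and 10683 (151-fold; 7.19 ± 0.25). Both were highest in KLA library 1, and the groups were separated by more than an order of magnitude. Il12a, a subunit of interleukin-12, had 1 read with vehicle and 212 with KLA, a ratio of 298 with a counting interval of 52.9 to 11832. Il6 had 3 reads and 154, a ratio of 72.2 with an interval of 24.2 to 354. Tnf, tumour necrosis factor, named after its values were seen, rose less steeply from 102, 96.5 and 131 to 649.7, 464 and 727 (5.59-fold). The 2 members that fell were Tgfb1 (-0.44 ± 0.10) and the anti-inflammatory cytokine Il10, at 91.6, 85.6 and 56.2 with vehicle and 9.13, 34.4 and 15.2 with KLA (-2.10 ± 0.36). Interferon beta (Ifnb1) was below the filter and not tested.

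Chemokines, which recruit leukocytes, rose in 8 of 19 tested and fell in 1, with a median of 0.87. Ccl5 was at 45.2, 66.2 and 149 with vehicle and 11037, 16871 and 13845 with KLA, a 160.3-fold rise (log2 fold change 7.47 ± 0.26) in which every KLA library was far above every vehicle library. The neutrophil chemokines Cxcl1 and Cxcl3 rose by 24.5-fold and 87.5-fold but unevenly, Cxcl3 standing at 1329, 295 and 211 and Cxcl1 at 491, 59.9 and 196 in the KLA libraries. KLA library 1 was the highest in both. Ccl22, a chemokine for T cells, rose from 4.76, 3.11 and 9.78 to 188, 148 and 106. Ccl6 was the member that fell, 3.62-fold. Cxcl10, an interferon-induced chemokine, did not pass the test at 227, 175 and 177 and 312, 632 and 288 (log2 fold change 1.00 ± 0.49).

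Receptors for these ligands went both ways, 11 of 25 tested higher and 8 lower. Ccr2, the receptor for Ccl2 that brings monocytes out of marrow, fell from 1677, 1672 and 1537 to 83.5, 204 and 200.4 (log2 fold change -3.43 ± 0.25, adjusted p = 4.21e-05), and Cxcr4 fell from 2735, 1941 and 2342 to 616, 436 and 413. In both the KLA libraries all lay below the vehicle libraries. Ccrl2, a chemokine-binding receptor that does not signal, rose 5.13-fold, and Ccr7, which guides cells to lymph nodes, rose from 5.95, 6.23 and 19.6 to 39.1, 38.9 and 41.0, a call that ended without replicate 1. The interleukin-1 receptor Il1r1 rose from 15.5, 3.89 and 6.11 to 67.8, 32.9 and 22.8.

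**Figure D2:**
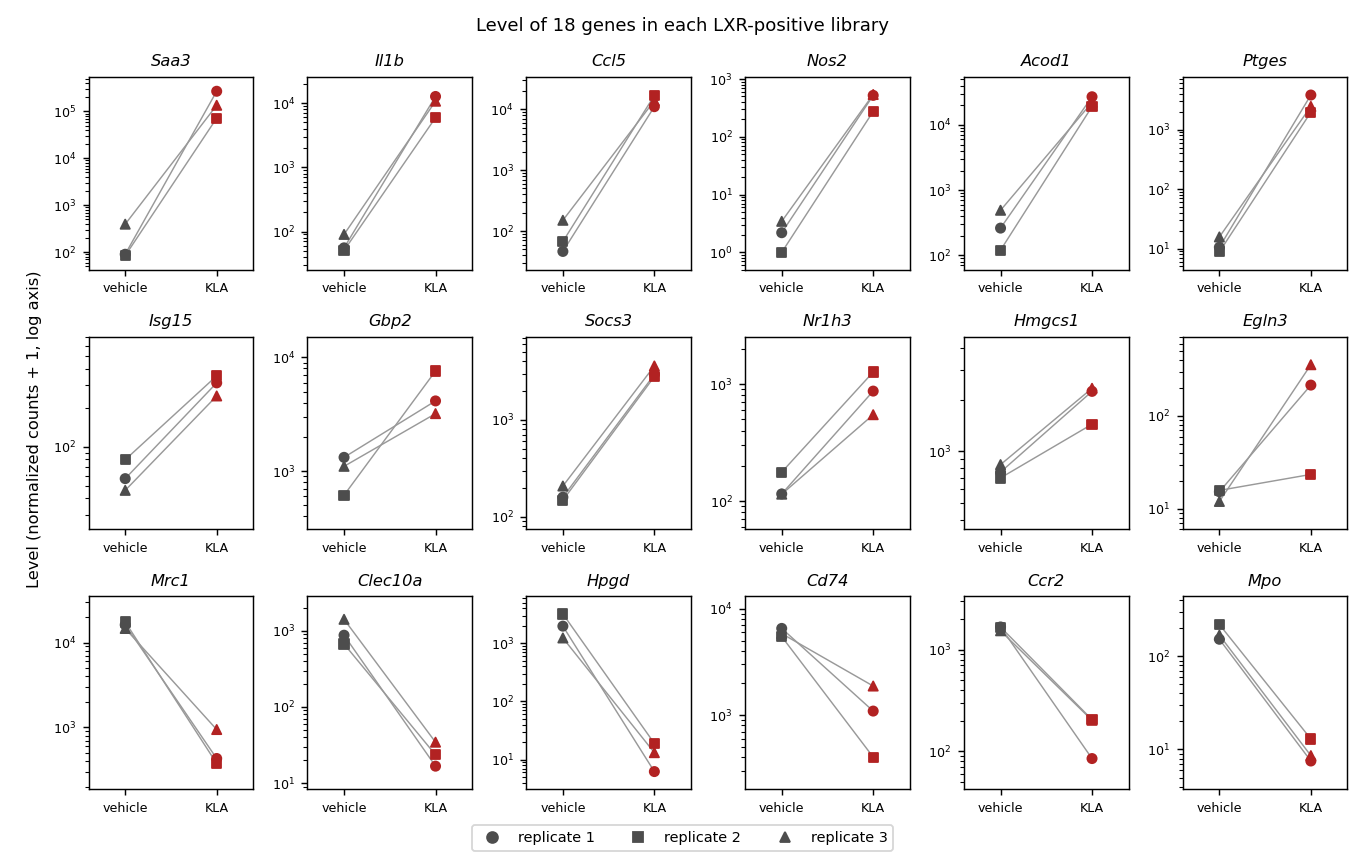
Normalized count plus 1 (log scale) of 18 genes in each of the 3 vehicle and 3 KLA libraries of LXR-positive macrophages, with lines joining the same replicate number. Saa3, Il1b, Ccl5, Nos2, Acod1 and Ptges rise in every pair, Mrc1, Clec10a, Hpgd, Cd74, Ccr2 and Mpo fall in every pair, and Egln3 in KLA library 2 lies close to its vehicle level.

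Prostaglandin genes went both ways. Ptges, which makes prostaglandin E2, rose from 9.52, 7.78 and 14.7 to 3828, 1965 and 2460.5, 258-fold (log2 fold change 7.87 ± 0.32), and the inducible cyclooxygenase Ptgs2 from 44.0, 21 and 19.6 to 1162, 927 and 849, 34.7-fold. The constitutive cyclooxygenase Ptgs1 fell from 529, 454 and 565 to 99.2, 95.8 and 112, 5.04-fold. Hpgd, which inactivates prostaglandins, fell from 1975, 3203 and 1235 to 5.22, 18 and 12.1, 181-fold (log2 fold change -7.42 ± 0.31, adjusted p = 4.14e-06). None of the 4 overlapped between groups, and over the whole list 4 of 13 tested rose, with Ptgir and Pla2g4a, and 4 fell, with Hpgds and Ptger4. In arginine metabolism 7 of 11 rose and 1 fell, with a median of 0.86. The arginine transporter Slc7a2 rose from 137, 102 and 67.2 to 7753, 5214 and 2019 (49.0-fold) and Ass1, which rebuilds arginine from citrulline, from 48.8, 40.5 and 74.5 to 1198, 945 and 592 (16.7-fold). KLA library 3 was the lowest of the KLA libraries in both. Arginase 1, also a marker of alternative activation, rose from 9.52, 5.45 and 7.33 to 581, 234 and 191 (45.1-fold) alongside Nos2, which uses the same substrate, and Arg2 rose 7.20-fold. Sat1, a polyamine acetyltransferase named after its values were seen, was the single fall (-1.52 ± 0.09).

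Interferon-stimulated genes rose in 25 of 36 tested and fell in none, with a median log2 fold change of 1.04. By pair the median was 0.79, 1.71 and 0.79, so the pair of replicate 2 moved most. Without replicate 2, 21 were higher and 2 lower (Ifi204 and Ifit3b), with a median of 0.79. Isg15, a ubiquitin-like modifier, was at 55.9, 78.6 and 45.2 with vehicle and 311, 352 and 246 with KLA, 5.05-fold higher with no overlap (log2 fold change 2.34 ± 0.29, adjusted p = 0.000556). Irf7, the transcription factor that amplifies interferon output, rose from 1301, 1259 and 1248 to 4643, 8679.6 and 5117, the nucleic acid sensor Zbp1 from 744, 528 and 645 to 2832, 4488 and 2430.2 and Oasl1 from 96.4, 77.8 and 101 to 300.1, 671 and 304. In these 3 genes KLA library 2 was the highest and the other 2 still lay above every vehicle library. Not every classical member passed the test: Rsad2 (viperin) was at 1424, 1056 and 1381 and 1247, 2742 and 1259.8 and Ifit2 at 4583, 3076 and 4016 and 3219.8, 10674 and 3779.6, both named after their values were seen.

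Interferon-inducible GTPases, which attack the vacuoles of intracellular pathogens, showed the same unevenness, 7 of 14 higher and none lower with a median of 1.15. The pair medians were 0.55, 2.08 and 0.80, and without replicate 2, 4 were higher and 1 lower (Gbp8) with a median of 0.63. Gbp6 rose in all pairs, from 162, 116 and 191 to 3483, 5178 and 2887 (24.7-fold; log2 fold change 4.60 ± 0.32). Gbp2 was at 1318, 612 and 1098 and 4137, 7586 and 3198, called at 2.27 ± 0.54 but not without replicate 2, when its log2 fold change was 1.60. Gbp5 rose from 463, 251 and 327 to 1306, 2182 and 973 (4.29-fold). Gbp4 was called at 1.89 ± 0.48 but not without replicate 2 (1.25) or without replicate 3. These genes are close copies of one another, and the sources used here do not give how the counting divided reads among them.

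Class I antigen presentation rose more evenly, 14 of 16 tested higher and none lower, with a median of 0.87. The proteasome activator subunit Psme2 rose from 758, 1159.6 and 1125 to 2805, 4341 and 4258 (3.75-fold), the immunoproteasome subunit Psmb8 from 487, 605 and 539 to 1609, 1688 and 1603 (3.00-fold), and the peptide transporter Tap1 2.47-fold. Calreticulin (Calr), a folding chaperone, rose 2.58-fold. Groups did not overlap in any of the 4. The heavy chain genes differed, H2-K1 called higher at 0.77 ± 0.10 and H2-D1 not passing at -0.28 ± 0.12, both named after their values were seen.

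**Figure D3:**
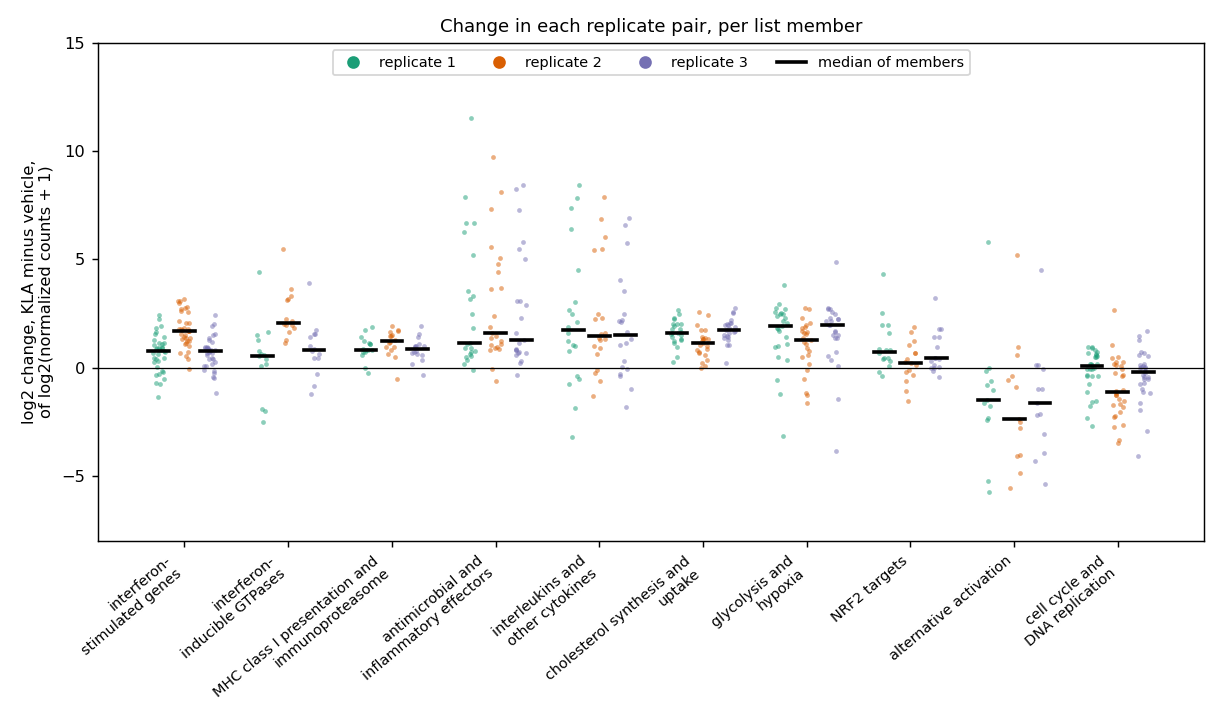
Log2 change from vehicle to KLA (y axis) for the members of 10 gene lists in replicate pairs 1, 2 and 3, one point per gene and a bar at the median. The medians of interferon-stimulated genes and GTPases are highest in pair 2 (1.71 and 2.08), and those of cholesterol and glycolysis genes are lowest there (1.13 and 1.29).

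The DNA just upstream of 5 genes, the top called member with a RefSeq promoter in each of the cytokine, chemokine, interferon-stimulated, effector and feedback lists, is shown because these lists rose. Each line gives the 250 bases before the RefSeq start on the strand of the gene, 5′ to 3′ (GRCm38.p6). Capitals mark matches to 4 patterns: GGG and CC spaced by 5 bases of any kind (NF-kB-like), GAAA and GAAA spaced by 2 bases of any kind (like the interferon response element) and TGANTCA (AP-1-like), searched on both strands, and TATAAA on the strand of the gene. The regions are chr2:129309973-129310222 (minus strand), chr5:90785851-90786100 (plus), chr4:156200819-156201068 (minus), chr7:46715677-46715926 (minus) and chr11:117969367-117969616 (minus).
Il1a: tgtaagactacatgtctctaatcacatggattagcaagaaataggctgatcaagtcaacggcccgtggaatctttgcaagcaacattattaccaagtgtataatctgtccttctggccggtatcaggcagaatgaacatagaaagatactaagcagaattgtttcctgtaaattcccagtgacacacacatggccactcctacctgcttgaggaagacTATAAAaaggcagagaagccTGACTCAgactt
Cxcl3: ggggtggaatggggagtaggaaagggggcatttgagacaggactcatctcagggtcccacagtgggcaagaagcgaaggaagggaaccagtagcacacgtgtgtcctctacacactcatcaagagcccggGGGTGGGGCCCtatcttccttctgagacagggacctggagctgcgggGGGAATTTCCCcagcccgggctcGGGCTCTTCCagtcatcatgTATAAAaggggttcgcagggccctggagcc
Isg15: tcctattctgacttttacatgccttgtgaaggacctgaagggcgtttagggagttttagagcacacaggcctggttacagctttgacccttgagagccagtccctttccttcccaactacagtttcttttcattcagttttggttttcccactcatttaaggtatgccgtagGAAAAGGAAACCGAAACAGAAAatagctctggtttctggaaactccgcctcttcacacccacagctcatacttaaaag
Saa3: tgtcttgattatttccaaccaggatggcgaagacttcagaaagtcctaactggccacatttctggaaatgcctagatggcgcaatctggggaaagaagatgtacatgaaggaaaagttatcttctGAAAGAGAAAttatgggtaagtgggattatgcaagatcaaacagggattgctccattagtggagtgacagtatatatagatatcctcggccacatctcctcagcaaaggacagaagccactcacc
Socs3: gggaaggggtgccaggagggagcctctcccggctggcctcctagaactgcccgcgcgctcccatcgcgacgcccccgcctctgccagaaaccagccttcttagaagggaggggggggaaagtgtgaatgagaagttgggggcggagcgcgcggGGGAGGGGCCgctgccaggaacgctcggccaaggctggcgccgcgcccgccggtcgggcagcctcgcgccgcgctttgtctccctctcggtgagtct

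Il1a carried an AP-1-like match 12 bases and a TATAAA match 32 bases before the start. Cxcl3 had a TATAAA match 30 bases before the start and 5 NF-kB-like matches between 120 and 50 bases before it, some of them overlapping because the 2 strands match the same letters. Isg15 held 3 overlapping matches to the interferon pattern, beginning 78, 72 and 66 bases before the start. Saa3 had 1 match to the same pattern at 125 bases and Socs3 1 NF-kB-like match at 97 bases. Over windows of 300 bases, 250 before to 50 after the start, of all tested genes (13271 windows of 10470 genes), the NF-kB-like letters were in 64.4%, the interferon pattern in 3.32%, the AP-1-like pattern in 5.65% and TATAAA in 4.85%. The NF-kB-like pattern was thus in most windows, and in 63.9% of the 291 windows of genes called higher past 4-fold. The AP-1-like pattern was in 13.1% and TATAAA in 8.93% of those 291 windows, against 7.82% and 10.9% of the 294 windows of genes called lower past 4-fold. The interferon pattern was in 48.4% of the 31 windows of interferon-stimulated genes. A match describes letters and not binding.

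Glycolysis and hypoxia genes rose almost throughout, 20 of 25 tested higher and 2 lower, with a median log2 fold change of 1.77 and 21 higher and 2 lower without replicate 2. Pgk1, a glycolytic kinase, rose from 1438, 1255 and 1547 to 11109, 8224 and 10123 (6.95-fold; log2 fold change 2.79 ± 0.15) and the phosphofructokinase Pfkl from 489, 469 and 568 to 2723, 3205 and 3879.7 (6.43-fold). Groups were far apart in both. Named after their values were seen, the glucose transporter Slc2a1, the hypoxia factor Hif1a and lactate dehydrogenase Ldha rose 5.66-fold, 3.34-fold and 4.69-fold. KLA library 2 was the lowest of the KLA libraries in 22 of the 25 genes. The oxygen sensor Egln3 was the extreme, at 14.3, 14.8 and 11.0 with vehicle and 214, 22.5 and 355 with KLA, and its call (log2 fold change 3.09 ± 0.75) ended without replicate 1 or without replicate 3. The 2 falls were Pdk4, which restrains pyruvate dehydrogenase, from 30.9, 19.5 and 13.4 to 2.61, 7.49 and 0, and the glucose transporter Slc2a3 (-1.28 ± 0.18).

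Tricarboxylic acid cycle genes rose in 13 of 23 tested and fell in 2, with a median of 0.55. Malate dehydrogenase 2 (Mdh2) rose from 675, 581 and 850.4 to 2207, 2122 and 2269 (3.13-fold), the citrate carrier Slc25a1 2.90-fold, Idh3a 2.60-fold and the succinate dehydrogenase subunit Sdhb 2.06-fold. The 2 falls, fumarase Fh1 (-0.57 ± 0.14) and Suclg2 (-0.61 ± 0.16), were both lost without replicate 1 or without replicate 3. Transcripts of the mitochondrial chromosome itself gave 1 call in 13, mt-Cytb lower at -0.79 ± 0.25, which was lost without the pairing. Vehicle library 2 was the highest vehicle library in all 13, and between 0 and 6 members were called lower across the alternatives. The ribosomal RNA mt-Rnr1 was at 142816, 376303 and 174870.0 with vehicle and 88924, 136636 and 116556 with KLA, called lower with the pairing (adjusted p = 0.0293) but not without it (0.0649).

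Stress and iron genes followed. Of 16 NRF2 targets 6 rose and 1, Nfe2l2 (NRF2) itself, fell (-0.62 ± 0.14). The cystine importer Slc7a11 rose from 129.7, 136 and 175 to 2630.2, 497 and 1607, haem oxygenase Hmox1 3.23-fold, thioredoxin Txn1 3.56-fold and the metallothionein Mt2 3.15-fold. KLA library 2 was the lowest KLA library in 14 of the 16, and without replicate 2, 8 were higher and 1 lower. Among 16 tested genes of the unfolded protein and ATF4 responses 9 rose and none fell, including Creld2 (1.48 ± 0.15) and Sdf2l1 (1.38 ± 0.16) of the endoplasmic reticulum and Phgdh (2.13 ± 0.45) of serine synthesis, the last not called without replicate 1 or without replicate 3. Iron handling showed large moves in opposite directions, 4 of 11 higher, with Slc11a1 and Slc11a2, and 3 lower, with Tfrc. Ferritin heavy chain Fth1, which stores iron, rose from 25684, 33395 and 32709 to 115331, 82862 and 101492 (3.26-fold) and ceruloplasmin Cp, a ferroxidase, from 1861, 1313 and 2995 to 18188, 28471 and 24962 (11.6-fold). Ferroportin Slc40a1, the only known cellular iron exporter, fell from 1592, 1150.3 and 1795 to 48.3, 62.9 and 74.4 (24.5-fold), and transferrin Trf from 4201, 4105 and 4462 to 304, 310.0 and 563 (10.8-fold). Groups did not overlap in any of these 4 genes.

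The cholesterol synthesis and uptake list moved as a block: 22 of 23 tested genes were higher, none lower, and the exception Ebp had a log2 fold change of 0.17 ± 0.11. The median was 1.51. Mvd, of the mevalonate pathway, rose from 94.0, 45.9 and 67.2 to 599, 276 and 466 (6.47-fold; log2 fold change 2.66 ± 0.15). Fdps rose from 208, 185 and 197 to 1014, 624 and 1151 and Hsd17b7 from 69.0, 35.8 and 94.1 to 394, 201 and 395. Every KLA library exceeded every vehicle library in these 3, with KLA library 2 the lowest. It was the lowest in all 23 genes: the pair medians were 1.60, 1.13 and 1.73, and without replicate 2, 22 were again higher, with a median of 1.72. The regulators Srebf2 (0.85 ± 0.12) and Insig1 (1.51 ± 0.14), which control this pathway in opposite senses, both rose.

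LXR, its partners and its targets did not move as one, 7 of 24 higher and 8 lower with a median of -0.01. LXRalpha itself (Nr1h3, ENSMUSG00000002108, chromosome 2, 91184061 to 91202834) rose from 114, 176 and 114 to 870.2, 1267 and 546 (6.65-fold; log2 fold change 2.67 ± 0.15, adjusted p = 1.16e-05), all KLA libraries above all vehicle libraries and library 2 highest. LXRbeta (Nr1h2) was at 523, 569.7 and 654 and 821, 449 and 666, overlapping and not passing (0.11 ± 0.17). The lipogenic targets rose, the desaturases Scd2 from 238, 245 and 232 to 8403, 4657 and 10062 (32.3-fold) and Scd1 from 25.0, 10.9 and 12.2 to 288, 74.9 and 624 (20.5-fold), and the master regulator Srebf1 from 293, 252 and 228 to 809, 728 and 647 (2.82-fold). The cholesterol exporters Abca1, named after its values were seen, and Abcg1 did not pass the test at 0.18 ± 0.10 and -0.04 ± 0.13. Cd5l, a secreted macrophage protein, fell from 682, 1432 and 609.7 to 88.7, 231 and 50.1 (7.37-fold), and apolipoprotein E (Apoe), chosen after its values were seen, from 43371, 53772 and 43652 to 14491, 13566 and 19031 (2.99-fold).

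Fatty acid and lipid droplet genes rose in 13 of 25 tested and fell in 3, with a median of 0.61. Acsl1, which activates long-chain fatty acids, rose from 598, 529 and 692 to 19433, 8509 and 11429.7 (21.6-fold) and the desaturase Fads2 from 14.3, 14.0 and 14.7 to 292, 86.9 and 431 (18.9-fold). Pparg, a lipid-sensing nuclear receptor, fell from 287, 469 and 380.0 to 15.7, 18 and 12.1 (24.8-fold; log2 fold change -4.53 ± 0.19), and Angptl4, an inhibitor of lipoprotein lipase, from 63.1, 98.8 and 68.4 to 1.30, 7.49 and 4.55. The third fall was the droplet coat protein Plin2 (-1.24 ± 0.13). Groups did not overlap in these 3 genes.

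The KLA response of 14 of the 23 cholesterol genes was called different between genotypes. In the DKO macrophages 1 of the 23, Mvd, was called higher and 6 lower with KLA, with a median of -0.17. The difference of the responses, DKO minus LXR-positive, was called lower for 20 of 15957 genes (0.125%) and higher for 0, where 594 and 620 had an unadjusted p under 0.05 and DESeq2 called 45 lower and 19 higher. Of the 20, 14 were in the cholesterol list, 3 were the LXR targets Scd2, Srebf1 and Abcg1, 1 was Fads2 and the other 2 were the unlisted pseudogene Mrps36-ps1 and Gm10080. Scd2 had a log2 fold change of 4.94 ± 0.25 in LXR-positive and 0.54 ± 0.25 in DKO macrophages, a difference of -4.39 ± 0.35 (SE; adjusted p = 0.00606). Insig1 had 1.51 ± 0.14 and -0.58 ± 0.14, a difference of -2.09 ± 0.20. Idi1, of the isoprenoid steps, had 1.74 ± 0.18 and -0.84 ± 0.18, a difference of -2.58 ± 0.25. Vehicle means in LXR-positive and DKO cells were 238 and 1869 for Scd2, 789 and 1251 for Insig1 and 340 and 702 for Idi1. With KLA they were 7708 and 2704, 2305 and 838, and 1166 and 392. Gm10080 had vehicle means of 62.5 and 34.4, but varied widely between LXR-positive replicates. It stood there at 65.4, 122 and 0 with vehicle and at 83.5, 208 and 3.04 with KLA. The genotype difference with vehicle alone was not tested. Abcg1 stood at -0.04 ± 0.13 and -1.94 ± 0.13 and was called in the DKO cells alone, as was Gm10080 (1.04 and -5.00). Without the pairing the difference was no longer called for Insig1 (adjusted p = 0.0533), Msmo1, Lss, Sqle, Srebf1, Srebf2, Hsd17b7 and Gm10080, among others. The calls rested on few libraries: leaving out DKO replicate 2 left 0 genes called lower by limma (295 at an unadjusted p under 0.05), DKO replicate 1 or LXR-positive replicate 1 or 3 gave 4 each, DKO replicate 3 gave 11, and LXR-positive replicate 2 gave 33. The DKO libraries were deeper, at 14084070 to 27189081 reads, and with all libraries thinned to equal depth 25 genes were called lower and 0 higher. Gene-level counts did not check the DKO label: with vehicle, Nr1h3 had a mean of 181 ± 5.43 (SD, n = 3) in the libraries labelled DKO, above each LXR-positive vehicle library, and Nr1h2 a mean of 329 ± 64.0, below each. Which exons the deletions remove is unknown from the labels.

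**Figure D4:**
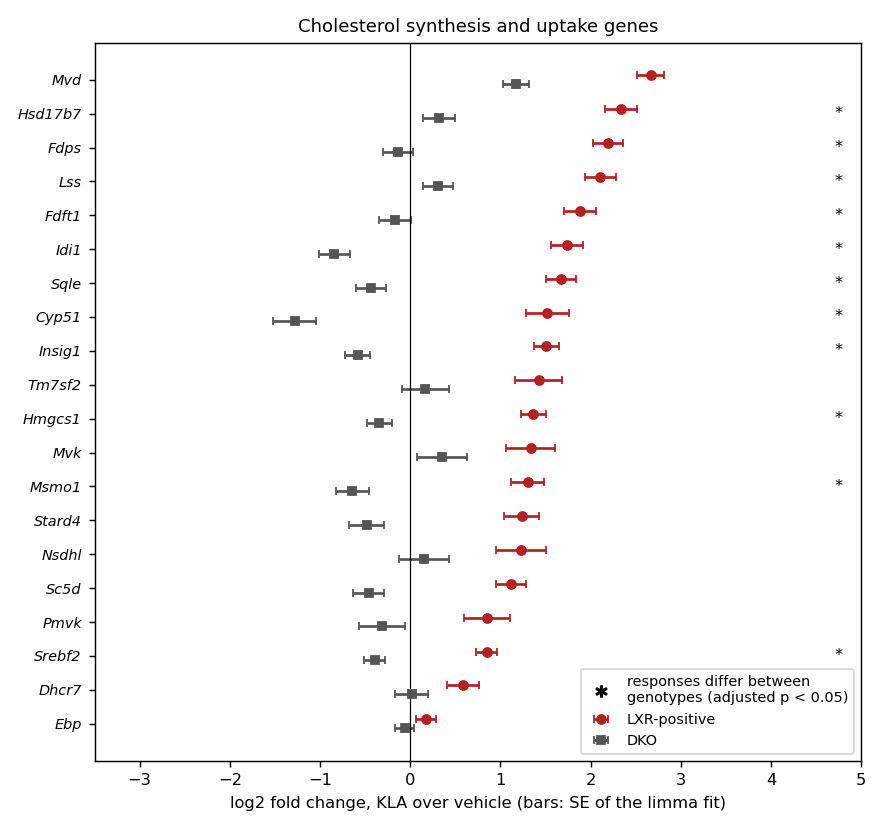
Log2 fold change of KLA over vehicle, with its standard error, for 20 cholesterol synthesis and uptake genes in LXR-positive and in DKO macrophages, with an asterisk where the difference between genotypes was called. All 20 LXR-positive values are above 0, while the DKO median over the 23 genes tested is -0.17.

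Most alternative activation genes fell. Of 13 tested alternative activation genes 8 fell and 1, Arg1, rose, with a median of -1.62. The mannose receptor Mrc1 was at 16176, 17459 and 14632 with vehicle and 429, 374 and 943 with KLA, 27.6-fold lower (log2 fold change -4.91 ± 0.27, adjusted p = 1.02e-05). The lectins Clec10a and Mgl2 fell from 874, 670.1 and 1414 to 15.7, 22.5 and 33.4 (41.4-fold) and from 60.7, 88.7 and 141 to 10.4, 4.49 and 6.07 (13.8-fold). Each vehicle library exceeded each KLA library in all 3 genes. The haemoglobin scavenger receptor Cd163 fell from 239, 194 and 269 to 77.0, 32.9 and 85.0.

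Genes for clearing apoptotic cells fell in 11 of 16 tested and rose in 3 (Abca7, Thbs1 and Tgm2), with a median of -0.81; without replicate 3, 7 were called lower. Gas6, the ligand that bridges dying cells to TAM receptors, fell from 3957, 2610.3 and 3803 to 621, 344 and 751 (6.04-fold; log2 fold change -2.64 ± 0.15). Stab1, a phosphatidylserine receptor, fell from 22935, 15225 and 20408 to 5569.5, 4475 and 5442 (3.78-fold), annexin A1 (Anxa1) 3.38-fold and the bridging protein Mfge8 2.70-fold. Among 12 scavenger receptors 3 rose, with Scarf1, and 5 fell: Stab1, Cd163, Cd36, Cd68 and Scarb2. Marco, which binds bacteria, rose from 65.4, 84.1 and 194 to 3648, 3071 and 5267 (34.9-fold) and Msr1 from 2479, 2456 and 2401 to 9767, 9088 and 6372 (3.44-fold). Macrophage identity genes gave 5 rises (Cebpb, Cd14, Adgre1, Itgam and Lyz2) and 9 falls in 20. The lipid receptor Trem2 fell from 2292, 2954 and 2706 to 319.6, 234 and 364 (8.67-fold). The C/EBP factors went apart, Cebpb rising 3.37-fold and Cebpa falling 3.53-fold.

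Class II presentation fell while some other members of the co-stimulation and class II list rose, 8 of 13 lower and 4 higher with a median of -0.79. Without replicate 1 or without replicate 2 the lower count was 5. Ciita, the class II transactivator, fell from 764, 521 and 497 to 74.4, 32.9 and 75.9 (9.73-fold), H2-Eb1 from 1119, 729 and 1402 to 127, 68.9 and 229 (7.65-fold) and the invariant chain Cd74 from 6555, 5489.8 and 5859 to 1091, 401 and 1878 (5.31-fold). KLA library 2 was the lowest in each. The 4 that rose were Icosl, Icam1, Cd40 and the ligand Cd274 (PD-L1), the last from 1115, 815 and 1199 to 5478, 6343 and 4197 (5.12-fold). Complement genes were even, 6 of 16 higher and 6 lower. Factor B (Cfb), which builds the alternative-pathway convertase, rose from 195, 85.6 and 285 to 23703, 18039 and 20259 (109.7-fold) and C3 5.08-fold. The integrin Itgax, a complement receptor subunit, fell 4.65-fold.

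Matrix proteases, inhibitors and adhesion genes rose in 12 of 20 and fell in 6 with the pairing, and in 8 and 3 without it, when 16.2% of all genes were higher and 12.4% lower. Serpinb2, an inhibitor of urokinase, rose from 11.9, 5.45 and 1.22 to 861, 451 and 158, with no overlap although both groups spread widely. The membrane protease Mmp14 rose from 1488, 758 and 1444 to 12966, 12417 and 10853 (9.82-fold) and the gelatinase Mmp2 from 19.0, 18.7 and 42.8 to 307, 106 and 231 (8.00-fold). Mmp3 had 2 reads with vehicle and 32 with KLA, a ratio of 22.5 with a counting interval of 5.74 to 194, and its call ended without replicate 1. Lysosomal genes fell in 9 of 27 and rose in 2, with a median of -0.13. The proton pump subunit Atp6v0d2, also an osteoclast marker, fell from 2502, 4126 and 1894 to 65.2, 142 and 91.1 (28.5-fold), the lysosomal acid lipase Lipa from 13496, 13711 and 14753 to 4647, 4097 and 4926 (3.07-fold) and prosaposin (Psap) 2.35-fold. Among the rises was cathepsin Z (Ctsz, 2.08-fold).

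Cell cycle genes depended on the pairing: 7 of 30 were lower and 2 higher (E2f1 and Cdkn1a) with it, and 1 lower (Ccnd1) and 1 higher (E2f1) without it. Vehicle library 2 was the highest vehicle library in 29 of the 30. Ccnb2, a mitotic cyclin, was at 83.3, 297 and 15.9 and 15.7, 25.5 and 0, groups that overlapped, with an adjusted p of 0.00044 with the pairing and 0.0563 without. Ccnd1, the cyclin of G1, fell from 140.4, 429 and 181 to 20.9, 103 and 45.5 without overlap (log2 fold change -2.23 ± 0.28) and was called in both.

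**Figure D5:**
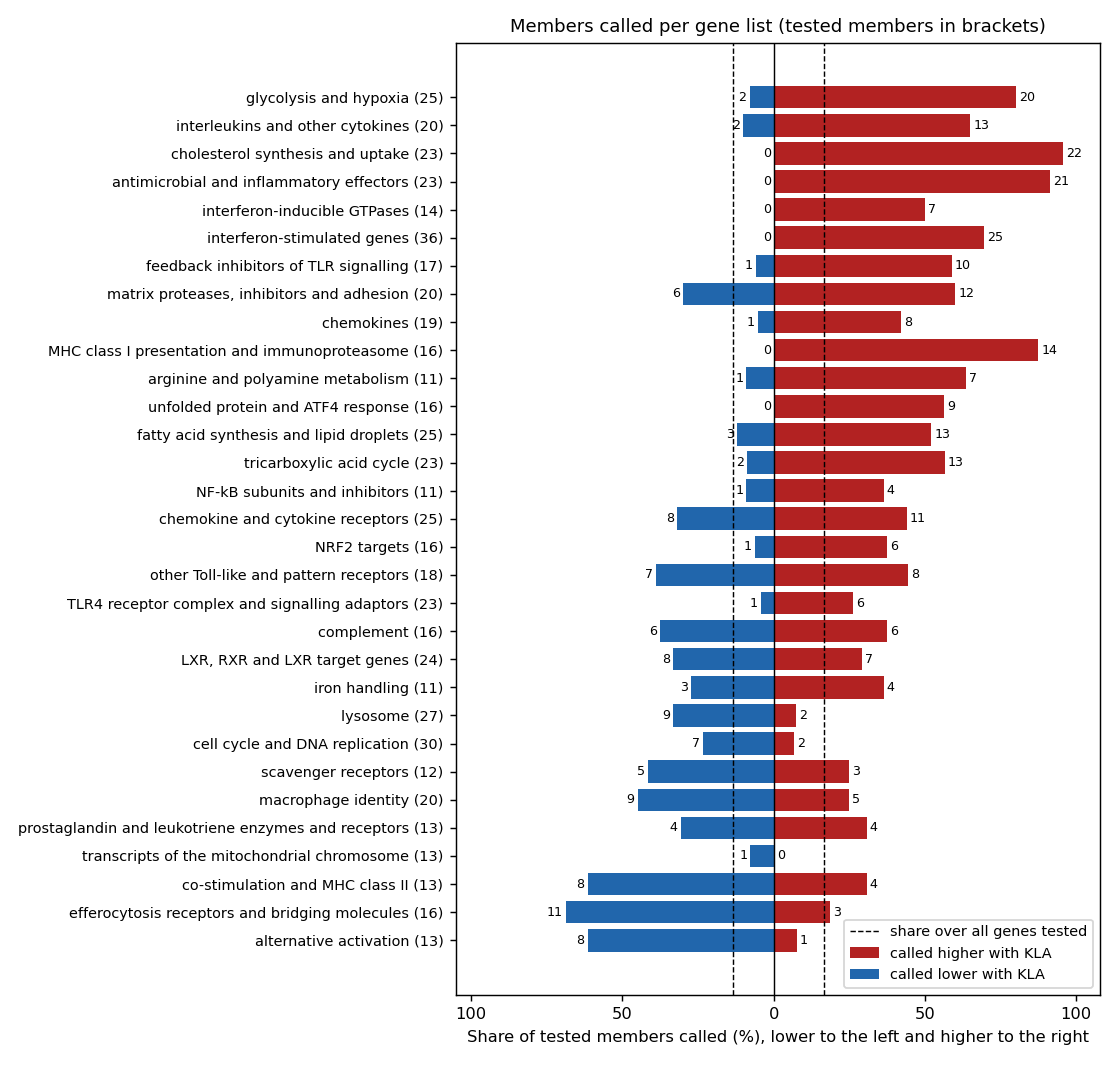
Share of the tested members of each gene list, the 7 marker lists left out, called higher (red, to the right) and lower (blue, to the left) with KLA, in percent, with the number called beside each bar and dashed lines at the shares over all genes tested, 16.5% and 13.5%. Cholesterol genes, effectors, class I presentation and glycolysis reach farthest past the line on the right, and, of the lists plotted, efferocytosis, class II and alternative activation genes farthest past the line on the left.

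Outside the lists, the largest rises included Cd38, an NAD-degrading ectoenzyme, from 36.9, 42.8 and 51.3 to 7067, 7299 and 5369 (151-fold; log2 fold change 7.20 ± 0.21), and Draxin, known as an axon guidance protein, from 1.19, 1.56 and 1.22 to 471, 256 and 229 (241-fold). The ratio of Draxin rests on very few vehicle reads and is given without a counting interval. The transcript U90926 had no read with vehicle and 223, 76.4 and 65.3 with KLA, at least 119-fold higher. Actb, beta-actin, often used as a reference, rose 2.07-fold, from 57665, 49934 and 67754 to 100144, 149871 and 112877. All 4 had separate groups.

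Other large falls were in genes of varied function. Slco2b1, an organic anion transporter, fell from 388, 577 and 422 to 1.30, 1.5 and 0, 1413 reads to 2, a ratio of 502 with a counting interval of 139 to 4152 (log2 fold change -7.99 ± 0.42, adjusted p = 8.54e-06). Samd4, an RNA-binding translational repressor, fell from 1036 reads to 3 (246, interval 83.8 to 1193), the lipid transporter Abca6 from 393 to 1 (279, interval 49.9 to 11064), the transcription factor Zbtb16 (PLZF) from 238 to 1 (169, interval 30.1 to 6711) and Nptx1, a pentraxin, from 257 to 1 (183, interval 32.5 to 7245). Bmp2, a growth factor, fell from 172, 329 and 434 to 0, 8.99 and 4.55 (69.1-fold). Mamdc2, Gprc5c and Gm5086 fell 48.9-fold, 31.5-fold and 37.1-fold. Cd28, a co-stimulatory receptor best known on T cells, had 2 entries: that on chromosome 1 was at 2423, 1383 and 1718 with vehicle and 124, 59.9 and 206 with KLA, and a copy on an alternate assembly sequence was at 0 in all KLA libraries, at least 64.2-fold lower. No KLA library reached any vehicle library in the genes of this paragraph.

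Some of the named genes share exon bases with a gene on the opposite strand, and the sources used here give a stranded library kit but no strand setting of the counting. Overlaps were read from GENCODE M21, which need not be the annotation behind the counts. Of the entries found in it, 91.0% had the same start and end. It has 774 shared bases between Fdft1 of the cholesterol list and the abundant Ctsb, and 471 between Slco2b1 and Gm15635. Cebpb shares 312 with Tmem189, Arg2 285 with Vti1b, Il1a 222 with Gm14023 and Il1b 25 with Il1bos. On the same strand, Cfb shares 2246 of its 2825 exon bases with Gm20547, and Trf 2108 of 3320 with Gm20425. The part of these overlaps in the counts was not tested. Of the 4789 genes called in LXR-positive macrophages, 3139 (65.5%) were called in the same direction in the DKO macrophages and 11 in the opposite one. Those 3139 were 73.9% of the DKO calls (14.6% of tested genes higher and 12% lower).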

How the data were processed

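RNA was measured by stranded total RNA sequencing, and 12 of 24 libraries entered the fit (3 per genotype and treatment). Per the submitters' processing notes the authors used kallisto and DESeq2 with GRCm38. Versions, annotation and the counting's strand setting were not given in the sources used here. As deposited, each value is a signal, the reads of a gene over a library's size factor, and whole reads were recovered from it for 100% of values within 0.01 read. The fit was limma 3.58.1 (R 4.3.3) with a trend on log2(value + 1), where a fold change understates low genes, a block per mouse and a KLA effect per genotype, over 15957 of 47372 entries with at least 10 normalized counts in at least 3 of 12 libraries. P-values were adjusted over all tested genes by Benjamini-Hochberg and called under 0.05.

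The replicate number was taken as the mouse, because the labels describe libraries from individual mice, 6 mice with 4 treatments each. Deviations from the group mean correlated by 0.159, 0.0910 and 0.0897 for libraries of the same number, and each library correlated best with its own number. The comparison, its gene lists (38 lists, 7 of them markers of other cells, with 659 members, 612 tested) and the tests were chosen with earlier results of these data known. Named genes are, by rule, the 12 largest called rises and falls without overlap and with a mean of at least 50 normalized counts in the higher group, the 4 largest calls of each list (with up to 2 of its most abundant uncalled members where fewer than 4 passed), Nr1h3, Nr1h2, Tlr4 and Cd14, the 6 largest differences in level and the 8 firmest differences between genotypes. Where a ratio on few reads carries a 95% interval, the interval covers counting error only, and a group at 0 was set to a floor of 3 reads over the group. Alternatives were other pseudocounts (8 and 0.5), filters (none and 30), scalings (quantile and TMM), the 6 libraries alone, no block, edgeR 4.0.16 and DESeq2 1.42.0 on the recovered reads, thinning to 8856391 reads and leaving out each replicate. A few genes named by the rule or in the lists are not reported here. The main fit was also run on simulated data with far fewer changed genes than were called here, and no result above rests on that run.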

Additional observations from a re-analysis of the deposited data

Results flagged for a closer look

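For the 15 genes given here, the KLA response differed between genotypes by a test of the difference itself (limma, DKO minus LXR-positive, Benjamini-Hochberg adjusted over all genes, adjusted p from 0.00606 to 0.0413, n = 3 mice per group). Without the pairing 7 of the 15 were no longer called: Hsd17b7, Insig1, Lss, Msmo1, Sqle, Srebf1 and Srebf2 (adjusted p from 0.0533 to 0.472). Without DKO replicate 2 none of the 15 was called (0.0802 to 0.282). Leaving out DKO replicate 1 lost 14 of them, LXR-positive replicate 1 or 3 lost 13 each, and DKO replicate 3 lost 8. Leaving out LXR-positive replicate 2 lost 0. In the lipid desaturases the difference in log2 fold change was -4.88 for Fads2 and -4.39 for Scd2. Vehicle means were higher in DKO than in LXR-positive cells for all 15 genes. They were 66.5 and 14.3 for Fads2, 1869 and 238 for Scd2, 1305 and 559 for Cyp51 and 1422 and 972 for Srebf2. The genotype difference with vehicle alone was not tested. In cholesterol synthesis the difference in log2 fold change was -2.80 for Cyp51, -2.58 for Idi1, -2.32 for Fdps, -2.11 for Sqle and -2.05 for Fdft1. It was -2.01 for Hsd17b7, -1.94 for Msmo1, -1.80 for Lss and -1.71 for Hmgcs1. Among regulators and transport genes it was -2.09 for Insig1, -1.44 for Srebf1 and -1.24 for Srebf2, all of which rose with KLA in LXR-positive cells, and -1.90 for Abcg1, which did not pass the test there. Fdft1 shares exon bases with the abundant Ctsb on the opposite strand, and the part of that overlap was not tested.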

How the results depend on the processing

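The number of genes called higher stayed between 1777 and 2655 over 23 alternatives, 17 of them planned and 6 chosen after seeing the data, and within 1.5 times the 2635 reported. The number called lower was 1374 when only the 6 LXR-positive libraries were fitted, and otherwise within 1.5 times the 2154 reported. Leaving out LXR-positive replicates gave 1777 to 2453 higher and 1469 to 1887 lower, leaving out DKO replicates 2333 to 2394 and 1787 to 1870, and leaving out single LXR-positive libraries without the block 2113 to 2493 and 1514 to 1953. Without the pairing by replicate number (no block), 2584 genes were higher and 1982 lower, 4271 of the called genes were shared, and the difference between genotypes gave 11 lower and 0 higher calls (limma; 451 and 404 at an unadjusted p under 0.05). For that difference DESeq2 called 45 lower and 19 higher, leaving out replicates moved the lower calls from 0 to 33 and the higher calls from 0 to 5, and, against 20 and 0 as reported, leaving out vehicle libraries 1, 2 and 3 without the block gave 6, 6 and 5 lower calls and KLA libraries 1, 2 and 3 gave 7, 26 and 7 lower and 2, 4 and 1 higher; the cause was not tested. No named gene reversed. Of 169 named genes 156 were called, 134 of them in every alternative that tested them. The KLA calls lost in at least 1 alternative were Ccnb2, Ccr7, Cd28 (the copy on an alternate assembly sequence), Cd3d, Cd74, Cdc20, Dcn, Dcstamp, Ddit4, Egln3, Gbp2, Gbp4, Il1r1, Irak2, Itgax, Mmp3, Pdgfrb, Phgdh, Plk1, Prg2, mt-Cytb and mt-Rnr1. Depth limits genes near the floor: a gene at 0 in the vehicle group has only a lower bound for its rise.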
